A study of Mus musculus with 15 samples.

Results

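The genes described here encode the machinery of mitosis: the kinases and cyclins that start it, the proteins that join chromosomes to the spindle, the motors that move them and the proteins that divide the cell. The set holds 38 gene symbols. A gene was included through a row of the array table that carried that symbol and no other, and the row with the highest mean over the 15 arrays stood for the gene. This gave 34 measured genes of the 14860 genes and 23332 rows of the table. The other 4, Ccnb1, Cenpf, Foxm1 and Ncapg, had no row of exactly 1 symbol and were not analysed here.

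Mouse primary myoblasts were grown to confluence, switched to low-serum medium to form myotubes and infected with adenovirus once 48 h of differentiation had passed, with 100 infectious units per cell (MOI). Control virus encoded GFP without an isoform, and the others encoded GFP and 1 of the 4 isoforms PGC-1a1, PGC-1a2, PGC-1a3 and PGC-1a4, each driven by a promoter of its own, so that infection and GFP were shared by all 5 groups. These are mouse isoforms of PGC-1a, a transcriptional coactivator encoded by Ppargc1a. The medium was replaced at 12 h, RNA was taken about 60 h after infection, and 3 Affymetrix exon arrays were hybridised per group. The labels give no mouse strain, age or number of animals, and do not say whether the 3 samples of a group came from independent cultures, and the p-values therefore speak only of the spread among these samples. For PGC-1a4 the source name reads isoform 1 while the titles read PGC-1a4, and the titles were followed. Values are log2 signals, 1 unit being a 2-fold difference, and a signal depends on the probes as well as on the RNA, so levels are not compared between genes.

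The Ppargc1a row stood at 8.53 ± 0.38 in GFP, 12.61 ± 0.06 in PGC-1a1 and 10.46 ± 0.14 in PGC-1a4 (SD, n = 3). It was at 8.88 ± 0.02 in PGC-1a2 and 8.94 ± 0.18 in PGC-1a3, which did not pass the test against GFP (limma, adjusted p = 0.22 and 0.14). Which part of the transcript its probes cover is not known here, and the row does not check the labels of these last groups. Of 18 myotube markers 14 had a row, and all of them lay above the 88th percentile of rows, with a mean level of 10.87 to 11.13 on every array. Markers of undifferentiated myoblasts had a mean over 10 genes of 7.62 to 7.79, and the list was uneven. Itga7, Myod1 and Myf5 were at percentiles 97.5, 96.0 and 94.7 of rows. Vcam1, Fgfr4, Chrdl2 and Calcr were at 53.5, 50.1, 40.6 and 29.3. The share of undifferentiated cells was not tested. The mean of 9 fibroblast markers was 4.40 to 4.90, over genes from Fap at percentile 10.8 of rows to Col3a1 at 70.5.

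In a dividing cell most of these genes are silent early in the cycle and are switched on together before mitosis. Their promoters are known for CCAAT boxes, which bind the factor NF-Y, and for a short element near the start site called the cell cycle homology region. That element binds the MuvB complex, which represses the genes in resting cells with p130 and p107 and activates them with B-MYB and FOXM1 in cycling ones. Myotubes have left the cell cycle for good, and a culture of primary myotubes keeps some mononucleated cells that can still divide. In RNA from a whole culture, a change in the number of dividing cells and a change in the RNA per cell cannot be told apart.

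Promoter windows from RefSeq (GRCm38.p6), running from 250 bases before to 50 after an annotated start, were found for 29 of the 34 measured genes. The letters TTTGAA or TTCGAA of the cell cycle homology region were found on either strand in 23 of the 29 (79.3%), against 18.8% of the 11894 genes of the array table with a window. CCAAT was found on either strand in 21 (72.4%), against 42.4%. Both motifs were found in 20 (69%), against 7.58%. Neither motif contains the other. Counted in the 250 bases before the start alone, the cell cycle homology letters were found in 11 of 29 (37.9%), against 16.9%, and the other genes with these letters had them only in the 50 bases after the start.

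The 6 measured genes with a cell cycle homology match in the last bases before an annotated start are printed because they show this arrangement most directly. Each line gives the 100 bases before the start, 5′ to 3′ on the gene's strand, with the matches to both motifs in capitals. CCAAT reads ATTGG and TTTGAA reads TTCAAA where the match is on the opposite strand. The first base of the match nearest the start lies 18 bases before it in Cdc20, 15 in Cdk1, 19 in Kif11, 30 in Prc1, 23 in Top2a and 29 in Ube2c. For Prc1 the second of its listed starts was used.
Cdc20, chr4:118437344-118437443, minus strand: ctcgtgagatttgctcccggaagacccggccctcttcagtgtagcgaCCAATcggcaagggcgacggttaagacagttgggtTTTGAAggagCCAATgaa
Cdk1, chr10:69352913-69353012, minus strand: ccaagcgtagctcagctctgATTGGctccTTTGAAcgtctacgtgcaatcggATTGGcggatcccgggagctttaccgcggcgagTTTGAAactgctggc
Kif11, chr19:37376282-37376381, plus strand: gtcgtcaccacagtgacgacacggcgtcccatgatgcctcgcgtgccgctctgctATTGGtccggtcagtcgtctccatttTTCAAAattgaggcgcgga
Prc1, chr7:80294376-80294475, plus strand: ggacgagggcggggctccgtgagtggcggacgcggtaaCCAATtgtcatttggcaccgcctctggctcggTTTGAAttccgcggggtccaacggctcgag
Top2a, chr11:99024190-99024289, minus strand: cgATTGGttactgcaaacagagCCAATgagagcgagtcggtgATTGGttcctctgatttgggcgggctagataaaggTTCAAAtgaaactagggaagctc
Ube2c, chr2:164769829-164769928, plus strand: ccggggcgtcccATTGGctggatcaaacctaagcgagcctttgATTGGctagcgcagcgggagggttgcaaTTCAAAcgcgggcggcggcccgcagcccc
Each of the 6 windows holds at least 1 CCAAT box upstream of that match, and the Cdk1, Top2a and Ube2c windows hold more than 1 there. The Cdc20 window holds a further CCAAT box between the match and the start. A match of these letters is a description of the sequence and not a measured site. The 6 genes did not behave alike on the arrays, as their values show: Prc1, Cdc20, Top2a and Ube2c differed between PGC-1a2 and PGC-1a4, and Cdk1 and Kif11 did not pass that test.

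**Figure D1:**
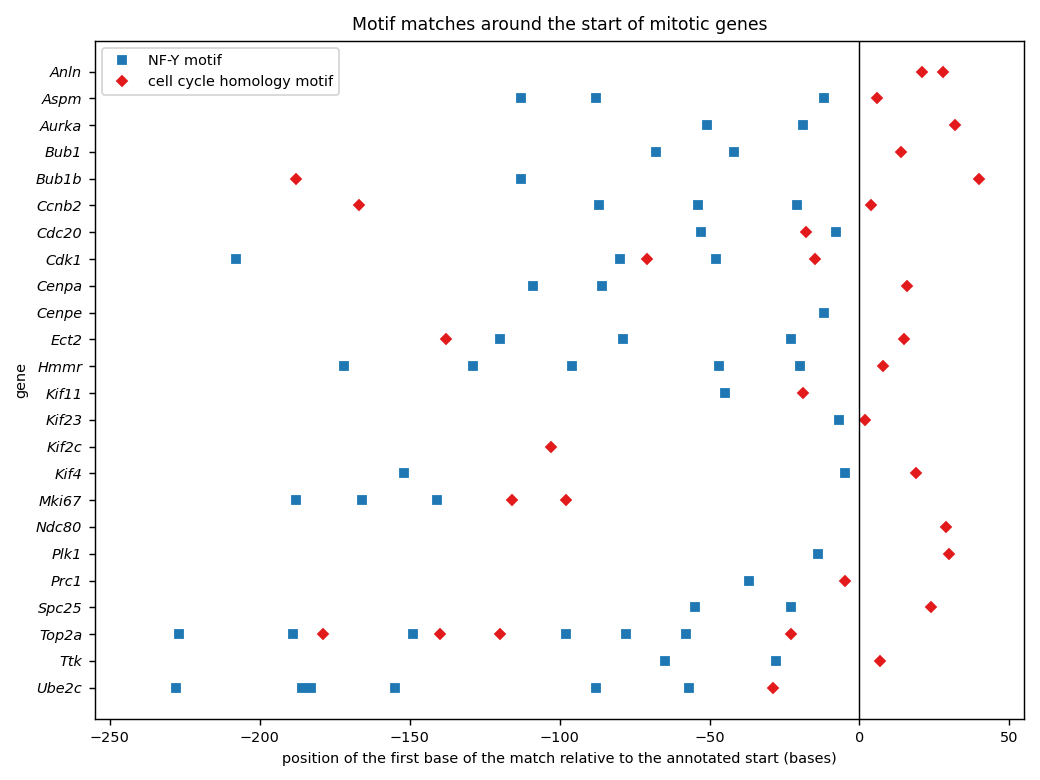
Positions of the 2 motifs around the first listed start of the 24 measured genes with a match. The x axis is the first base of the match relative to the start in bases (0, vertical line), blue squares are CCAAT boxes (NF-Y motif) on either strand, and red diamonds are cell cycle homology letters, most of which lie within 50 bases of the start.

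The mean signal of the 34 genes was highest in PGC-1a2 and lowest in PGC-1a4. It was 5.59, 5.31 and 5.56 on the 3 GFP arrays, 5.47, 5.29 and 5.26 on the PGC-1a1 arrays and 5.48, 5.76 and 5.79 on the PGC-1a2 arrays. It was 5.51, 5.45 and 5.35 on the PGC-1a3 arrays and 5.17, 5.01 and 5.15 on the PGC-1a4 arrays. Every PGC-1a4 array lay below all 12 others. Every PGC-1a1 array also lay below every PGC-1a2 array, narrowly, at 5.47 against 5.48. The other pairs of groups overlapped. By group mean, 25 of the 34 genes were highest in PGC-1a2, against 19.6% of all rows, and 28 were lowest in PGC-1a4, against 24.1% of all rows.

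**Figure D2:**
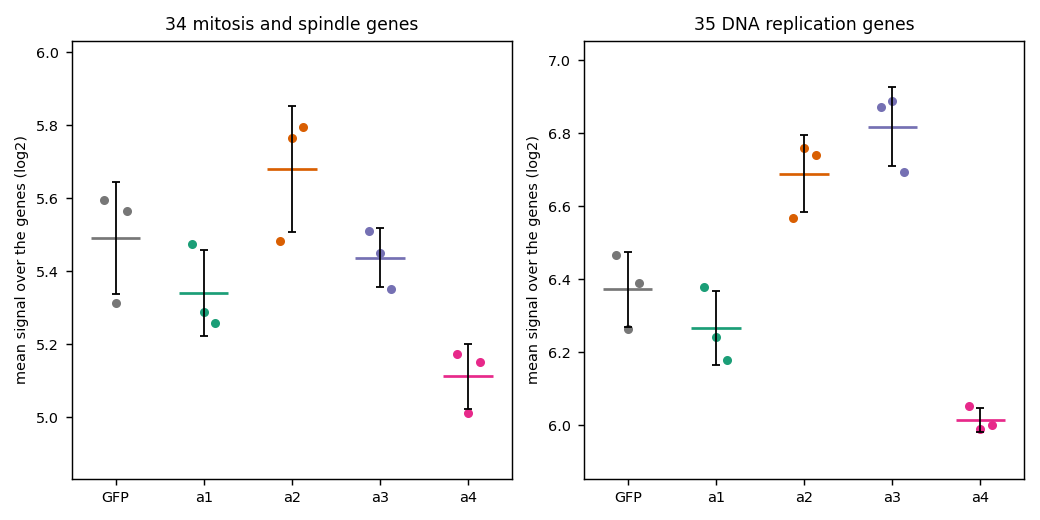
Mean log2 signal of the 34 mitotic genes and of 35 DNA replication genes on each array (points), with the group mean (line) and SD (bar), n = 3 arrays per group. The mitotic genes are highest in PGC-1a2 (5.68) and the replication genes in PGC-1a3 (6.82), and both are lowest in PGC-1a4 (5.11 and 6.01).

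The signals were low to moderate. Of the 34 genes, 16 lay above the median row, and 3, Ttk, Aspm and Mki67, lay below the 25th percentile of rows. Ttk was below the lower quartile of its array on all 15 arrays, Aspm on 12 and Mki67 and Cenpe on 7 each. Hmmr was below it on 6, Ndc80 on 4 and Bub1 on 1. The differences of such genes were measured near the floor of the arrays. Within groups, single arrays were low for most of the genes at once. GFP replicate 2 was the lowest GFP array for 30 of the 34 genes and PGC-1a2 replicate 1 was the lowest PGC-1a2 array for 29, with a median difference from the other arrays of the group of -0.26 and -0.30. PGC-1a4 replicate 2 was the lowest of its group for 28 genes, by a median of -0.13. GFP replicate 2 also had the highest lower quartile and median of all arrays, 4.05 and 5.66, and the lowest upper quartile, 7.73. The part of this in the counts was not tested. On GFP replicate 2, PGC-1a2 replicate 1 and PGC-1a4 replicate 2 the median deviation of the 34 genes from their group means was -0.17, -0.20 and -0.09. Over all rows it was -0.02, -0.003 and 0.006. The counts that rest on these arrays are given with and without them below.

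The test over the 5 groups called 22 of the 34 genes (64.7%), against 31.3% of all rows (limma F-test, adjusted p under 0.05 over all 23332 rows). It did not call Mki67, Top2a, Cdk1, Bub1b, Mad2l1, Ttk, Kif11, Kif23, Nusap1, Ndc80, Nuf2 or Incenp. Among the 10 pairwise comparisons the fullest was PGC-1a2 against PGC-1a4. There 26 of the 34 genes (76.5%) were higher in PGC-1a2 and 0 were lower, where 12.6% of all rows were called higher and 12.6% lower. The median difference was 0.62, against -0.02 over all rows. The call held in every one of the 13 alternative fits for 22 of the 26 genes.

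**Figure D3:**
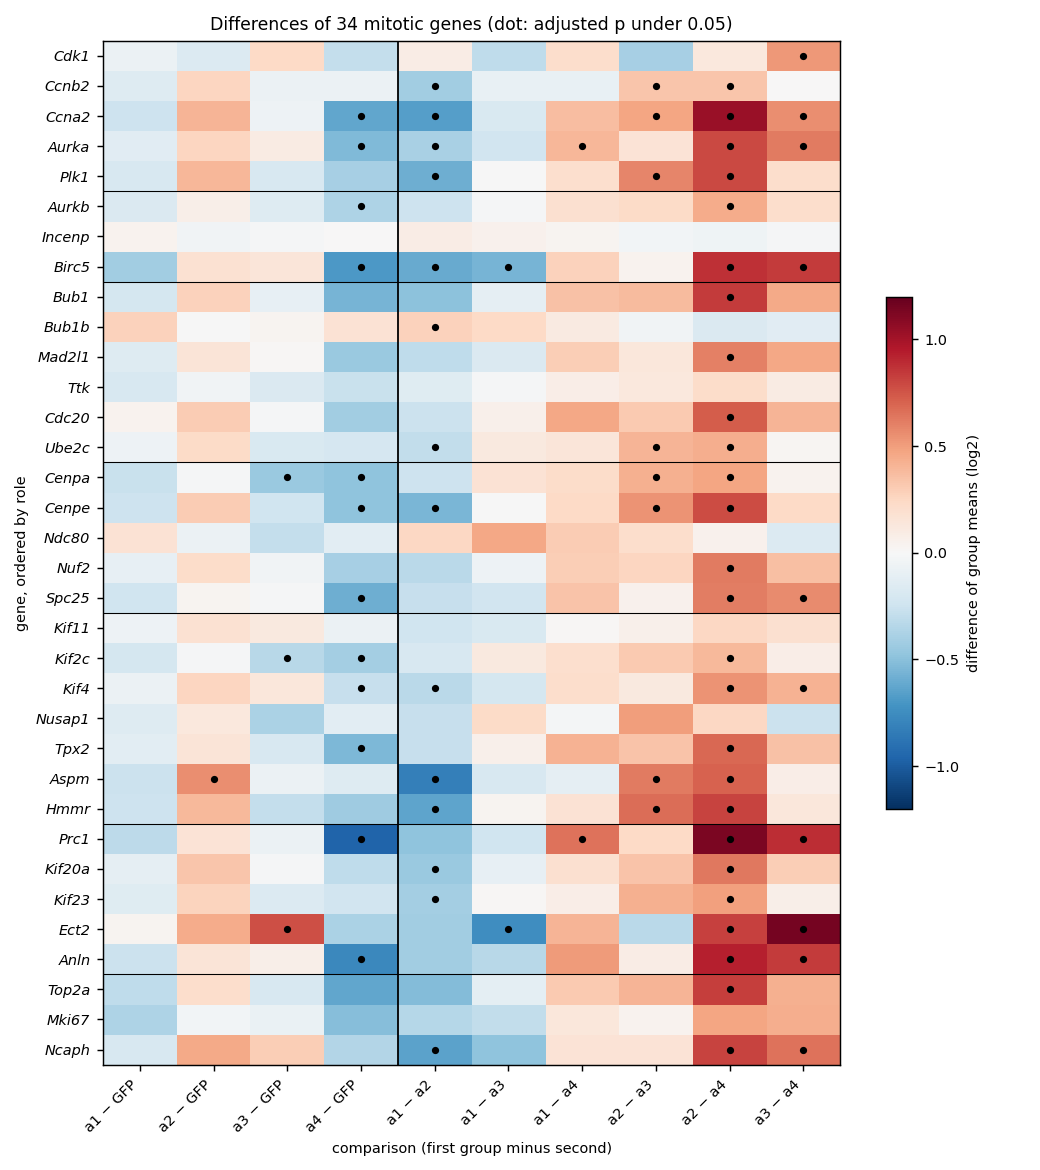
Differences of group means in log2 (colour, red higher in the first group) for the 34 genes, ordered by role and separated by horizontal lines, in 10 comparisons named below the columns (a1 to a4 are PGC-1a1 to PGC-1a4). Dots mark an adjusted p under 0.05: 26 dots stand in the column of PGC-1a2 against PGC-1a4, 12 in PGC-1a4 against GFP and 0 in PGC-1a1 against GFP.

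Against GFP the isoforms differed in how many of these genes passed the test. In PGC-1a4, 12 of the 34 (35.3%) were lower and 0 higher, against 7.22% of all rows called lower, and 7.05% higher, with a median of -0.40. In PGC-1a2, 1 was higher, Aspm, against 4.56% of all rows called higher and 4.77% lower, with 26 of 34 positive differences and a median of 0.20. There 12 genes had an unadjusted p under 0.05, a threshold for which no share of all rows is given here. In PGC-1a3, 1 was higher, Ect2, against 5.02% of all rows, and 2 were lower, Cenpa and Kif2c, against 2.97%, with a median of -0.07. In PGC-1a1, 0 were called by limma, against 4.44% of all rows called higher and 2.4% lower, 5 had an unadjusted p under 0.05, and the median was -0.17. In the main fit of all arrays the counts for PGC-1a1 and PGC-1a2 are under the background, and those for PGC-1a3 are close to it. Array weights, which also keep all arrays, gave 4 lower in PGC-1a1 (11.8%, against 6.75% of all rows). They gave 4 higher in PGC-1a2 (11.8%, against 6.33%). All 4 comparisons share the GFP arrays. Without GFP replicate 2, 16 genes (47.1%) were lower in PGC-1a4, against 8.39% of all rows in that fit, with Mki67, Top2a, Bub1, Kif20a and Ect2 added and Kif4 lost, and 1 was lower in PGC-1a1, Mki67. Without PGC-1a2 replicate 1, 4 genes (11.8%) were higher in PGC-1a2, Aspm, Ccna2, Ccnb2 and Hmmr, against 3.49% of all rows in that fit. The PGC-1a2 count thus lay under or above the background depending on the fit. The PGC-1a3 count fell to 1 without GFP replicate 3 or PGC-1a3 replicate 1. With the arrays of only the 2 groups compared in the fit, 3 of the 12 PGC-1a4 calls remained, Birc5, Ccna2 and Prc1, and the PGC-1a2 and PGC-1a3 counts were 0. The shares of all rows in these smaller fits are not given here.

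The kinases and cyclins of mitotic entry come first. Cyclin A2, the product of Ccna2, drives DNA synthesis and the entry into mitosis. Its signal was 7.51, 7.89 and 8.04 in PGC-1a2, 7.55, 7.28 and 7.37 in GFP and 6.89, 6.66 and 6.79 in PGC-1a4, and it was 7.15 ± 0.12 in PGC-1a1 and 7.34 ± 0.06 in PGC-1a3. All PGC-1a4 arrays lay below all GFP arrays and all PGC-1a2 arrays, and PGC-1a2 overlapped GFP. The difference of PGC-1a4 from GFP was -0.62 ± 0.13 (adjusted p = 0.0054), and that of PGC-1a2 from PGC-1a4 was 1.03 ± 0.13 (adjusted p = 6e-05). Ccna2 was also lower in PGC-1a1 than in PGC-1a2, at -0.66 ± 0.13 (adjusted p = 0.0027).

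Aurora kinase A, from Aurka, matures the centrosomes and builds the spindle poles. It read 5.99, 5.83 and 5.89 in PGC-1a4, 6.42, 6.26 and 6.62 in GFP and 6.73, 6.75 and 6.61 in PGC-1a2, without overlap between PGC-1a4 and either group. It was lower in PGC-1a4 than in GFP, at -0.53 ± 0.11 (adjusted p = 0.0062), and higher in PGC-1a2 than in PGC-1a4, at 0.79 ± 0.11 (adjusted p = 0.00017). In PGC-1a1, at 6.33, 6.30 and 6.28, it was above PGC-1a4 by 0.40 ± 0.11 (adjusted p = 0.042), which missed the threshold whenever any 1 of the 6 arrays was left out (adjusted p 0.061 to 0.13, and up to 0.081 with median centring or the replicate block). Plk1, which encodes the polo-like kinase active from centrosome maturation to cytokinesis, was at 6.82 ± 0.23 in PGC-1a2 and 6.03 ± 0.06 in PGC-1a4 without overlap, a difference of 0.80 ± 0.15 (adjusted p = 0.0013). A second Plk1 row with lower signal gave 0.14 for the same comparison (adjusted p = 0.53), so the 2 rows disagree.

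Cdk1, the kinase that drives mitosis, passed the test in 1 comparison. It read 7.15, 7.63 and 7.70 in PGC-1a2, 7.46, 7.29 and 7.36 in PGC-1a4 and 7.71, 7.60 and 7.65 in GFP, and PGC-1a2 overlapped both. The difference of PGC-1a2 from PGC-1a4 was 0.12 ± 0.14 (adjusted p = 0.64) and that of PGC-1a4 from GFP -0.28 ± 0.14 (adjusted p = 0.24). Its highest group was PGC-1a3, at 8.08, 7.91 and 7.67, and PGC-1a3 minus PGC-1a4 was 0.52 ± 0.14 (adjusted p = 0.016). That call did not hold when leaving out PGC-1a3 replicate 1 or 2 or PGC-1a4 replicate 2 (adjusted p 0.051 to 0.077). Cyclin B2, from Ccnb2, a partner of Cdk1, read 6.78, 7.04 and 7.05 in PGC-1a2 and 6.45 to 6.72 on the other 12 arrays, with a difference of 0.33 ± 0.08 (adjusted p = 0.0059) from PGC-1a4 and -0.42 ± 0.08 (adjusted p = 0.0019) for PGC-1a1 minus PGC-1a2. Against GFP it was 0.26 ± 0.08 (adjusted p = 0.053) in PGC-1a2, which missed the threshold and passed it without PGC-1a2 replicate 1, at 0.35 (adjusted p = 0.01). Of the 5 genes of this role, 4 were higher in PGC-1a2 than in PGC-1a4, against 12.6% of all rows. In PGC-1a1, 4 were lower than in PGC-1a2, against 9%, and in PGC-1a4, 2 were lower than in GFP, against 7.22%.

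The chromosomal passenger complex corrects faulty spindle attachments and then moves to the midzone. Its subunit survivin, from Birc5, read 4.76, 4.40 and 4.49 in PGC-1a4 and 4.96, 4.66 and 4.86 in PGC-1a1. It read 5.25, 5.15 and 5.32 in GFP, 5.23, 5.48 and 5.57 in PGC-1a2 and 5.36, 5.27 and 5.53 in PGC-1a3. The PGC-1a4 and PGC-1a1 arrays lay below all arrays of the other 3 groups, which overlapped each other. The difference from GFP was -0.69 ± 0.12 (adjusted p = 0.0022) in PGC-1a4 and -0.41 ± 0.12 (adjusted p = 0.065) in PGC-1a1, the second short of the threshold. It passed with array weights, at -0.51 (adjusted p = 0.0094), and with the filter on low rows, at -0.41 (adjusted p = 0.048). Birc5 was lower in PGC-1a1 than in PGC-1a2 and PGC-1a3, at -0.60 ± 0.12 (adjusted p = 0.0038) and -0.56 ± 0.12 (adjusted p = 0.0085).

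Aurora kinase B, from Aurkb, is the enzyme of the complex. It read 6.59, 6.58 and 6.59 in GFP, 6.08, 6.29 and 6.28 in PGC-1a4, 6.54, 6.66 and 6.79 in PGC-1a2, 6.54, 6.37 and 6.33 in PGC-1a1 and 6.51, 6.45 and 6.33 in PGC-1a3. It was lower in PGC-1a4 than in GFP, at -0.37 ± 0.09 (adjusted p = 0.013) without overlap, which missed the threshold when leaving out PGC-1a4 replicate 1 (adjusted p = 0.057, and up to 0.083 with median centring or only the 2 groups in the fit). The difference of PGC-1a2 from PGC-1a4 was 0.44 ± 0.09 (adjusted p = 0.0021). Incenp, the scaffold of the same complex, stayed within 5.58 to 5.86 on all arrays, and PGC-1a4 minus GFP was 0.01 ± 0.08 (adjusted p = 0.98).

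The spindle checkpoint holds anaphase until every chromosome is attached, and its release runs through Cdc20 and Ube2c, which work with the anaphase-promoting complex. Cdc20 read 4.69, 5.30 and 4.83 in PGC-1a2, 4.56, 4.63 and 4.72 in GFP and 4.26, 4.16 and 4.23 in PGC-1a4. All PGC-1a4 arrays lay below both groups, yet only the difference from PGC-1a2 passed the test, at 0.72 ± 0.14 (adjusted p = 0.002), while PGC-1a4 minus GFP was -0.42 ± 0.14 (adjusted p = 0.072). Ube2c, which encodes a ubiquitin-conjugating enzyme, had the highest percentile of the set and read 8.23, 8.19 and 8.34 in PGC-1a2, 7.74, 7.90 and 7.88 in PGC-1a3 and 7.86, 7.83 and 7.77 in PGC-1a4. It was higher in PGC-1a2 than in PGC-1a3 and PGC-1a4, by 0.41 ± 0.09 (adjusted p = 0.012) and 0.43 ± 0.09 (adjusted p = 0.0025). The first of these calls did not hold when leaving out PGC-1a2 replicate 3 or PGC-1a3 replicate 1 (adjusted p 0.052 to 0.06, and 0.055 with only the 2 groups in the fit).

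Of the checkpoint kinases, Bub1 read 4.39, 4.95 and 5.10 in PGC-1a2 and 4.12, 3.75 and 4.06 in PGC-1a4, a difference of 0.84 ± 0.19 (adjusted p = 0.0059). Mad2l1, which encodes the inhibitor of Cdc20, differed by 0.60 ± 0.16 (adjusted p = 0.013) between these groups, which missed the threshold when leaving out PGC-1a2 replicate 2 or 3 or PGC-1a4 replicate 2 (adjusted p 0.053 to 0.059). Bub1b, whose product BUBR1 is part of the same inhibitor, ran the other way. It read 5.58, 5.37 and 5.45 in PGC-1a1, 5.29, 5.07 and 5.22 in GFP and 5.11, 5.14 and 5.31 in PGC-1a2, and was higher in PGC-1a1 than in PGC-1a2 by 0.28 ± 0.08 (adjusted p = 0.03). It missed the threshold when leaving out PGC-1a1 replicate 1 or 3 or PGC-1a2 replicate 1 or 2 (adjusted p 0.068 to 0.12, and up to 0.088 with quantile normalization, a variance trend or only the 2 groups in the fit). Ttk, the kinase MPS1, was at 3.45 to 3.93 on all arrays and passed no test. None of these 6 genes passed the test in PGC-1a4 against GFP, where 7.22% of all rows were called lower and 7.05% higher. Bub1b had a difference of 0.17 ± 0.08 (adjusted p = 0.22) in that comparison and Bub1 of -0.56 ± 0.19 (adjusted p = 0.079). Without GFP replicate 2 Bub1 was lower there, at -0.73 (adjusted p = 0.027).

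Kinetochores are built on CENP-A, the centromeric histone H3 variant encoded by Cenpa. It read 5.33, 5.57 and 5.56 in GFP, 4.87, 5.15 and 5.12 in PGC-1a3 and 5.11, 4.97 and 4.94 in PGC-1a4, both below all GFP arrays, and 5.42, 5.58 and 5.43 in PGC-1a2. The difference from GFP was -0.48 ± 0.09 (adjusted p = 0.0036) in PGC-1a4 and -0.44 ± 0.09 (adjusted p = 0.013) in PGC-1a3. The PGC-1a3 call did not hold when leaving out GFP replicate 3 or PGC-1a3 replicate 1 (adjusted p 0.052 to 0.058, and 0.18 with only the 2 groups in the fit). Cenpa was thus 1 of 2 genes of the set that were lower than GFP in both PGC-1a3 and PGC-1a4, 2 comparisons that share the GFP arrays, and the other was Kif2c.

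Spc25, a subunit of the NDC80 complex that grips microtubules, read 5.12, 4.79 and 4.91 in PGC-1a4, 5.66, 5.34 and 5.58 in GFP and 5.61, 5.43 and 5.48 in PGC-1a3. PGC-1a4 lay below both groups, with a difference of -0.58 ± 0.13 (adjusted p = 0.011) from GFP and of 0.57 ± 0.13 (adjusted p = 0.0073) for PGC-1a3 minus PGC-1a4. Cenpe, a kinetochore motor, differed by 0.79 ± 0.14 (adjusted p = 0.00092) between PGC-1a2 and PGC-1a4. Its difference of -0.48 ± 0.14 (adjusted p = 0.035) between PGC-1a4 and GFP did not hold when leaving out GFP replicate 1 or 3 or PGC-1a4 replicate 2 or 3 (adjusted p 0.078 to 0.13, and up to 0.16 with quantile normalization, median centring or only the 2 groups in the fit). Nuf2, of the NDC80 complex, was higher in PGC-1a2 than in PGC-1a4 by 0.62 ± 0.16 (adjusted p = 0.01), a call that did not hold when leaving out PGC-1a2 replicate 2 (adjusted p = 0.052). Ndc80 itself was at 3.80 to 4.56 and passed no test.

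Among spindle motors and microtubule proteins, Aspm had the only call of PGC-1a2 against GFP. Its product focuses spindle poles. Aspm read 4.24, 4.40 and 4.60 in PGC-1a2, above all 12 other arrays, against 3.88, 3.88 and 3.82 in GFP. PGC-1a1 read 3.49, 3.57 and 3.73, PGC-1a3 3.81, 3.67 and 3.88 and PGC-1a4 3.60, 3.74 and 3.78, levels near or below the lower quartile of the arrays. The difference of PGC-1a2 was 0.56 ± 0.10 (adjusted p = 0.0041) from GFP, 0.62 ± 0.10 (adjusted p = 0.0025) from PGC-1a3 and 0.71 ± 0.10 (adjusted p = 0.00015) from PGC-1a4, and PGC-1a1 minus PGC-1a2 was -0.82 ± 0.10 (adjusted p = 9.4e-05). With only the 2 groups in the fit the adjusted p against GFP was 0.083.

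Hmmr, a spindle assembly factor, read 4.16, 4.83 and 4.75 in PGC-1a2 and 3.81, 3.62 and 3.87 in PGC-1a4. The PGC-1a4 values each lay below the lower quartile of their array. PGC-1a2 was higher than PGC-1a4 by 0.81 ± 0.16 (adjusted p = 0.0026). Tpx2, which activates Aurora A on the spindle, differed by 0.69 ± 0.16 (adjusted p = 0.007) between the same groups. The chromokinesin gene Kif4 read 4.04, 3.98 and 4.13 in PGC-1a4, below all 12 other arrays, and 4.58, 4.65 and 4.52 in PGC-1a2, a difference of 0.54 ± 0.08 (adjusted p = 0.00023). Against GFP, PGC-1a4 was lower, at -0.28 ± 0.08 (adjusted p = 0.031) in Kif4 and -0.54 ± 0.16 (adjusted p = 0.047) in Tpx2. Neither call held when leaving out GFP replicate 1 or 3 or PGC-1a4 replicate 1 or 2, nor did that of Kif4 for GFP replicate 2 or that of Tpx2 for PGC-1a4 replicate 3 (Kif4 adjusted p 0.051 to 0.11, and up to 0.13 with quantile normalization, median centring, a variance trend or only the 2 groups in the fit). For Tpx2 these fits gave adjusted p 0.086 to 0.17, and up to 0.15 with quantile normalization, median centring or only the 2 groups in the fit.

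Kif2c, whose product takes microtubules apart at centromeres, read 4.74, 4.47 and 4.63 in GFP, 4.30, 4.39 and 4.18 in PGC-1a3 and 4.19, 4.15 and 4.28 in PGC-1a4, both below all GFP arrays. PGC-1a4 differed from GFP by -0.41 ± 0.09 (adjusted p = 0.0098) and PGC-1a3 by -0.33 ± 0.09 (adjusted p = 0.048). The PGC-1a3 call did not hold when leaving out GFP replicate 1 or 3 or any 1 of the PGC-1a3 arrays (adjusted p 0.066 to 0.13, and up to 0.24 with quantile normalization, median centring, a variance trend, the replicate block or only the 2 groups in the fit). Kif11, the motor that pushes spindle poles apart, read 5.81, 6.21 and 6.13 in PGC-1a2 and 5.92, 5.67 and 5.81 in PGC-1a4 and passed no test. Nusap1, which bundles spindle microtubules, also passed none, with a difference of 0.25 ± 0.20 (adjusted p = 0.46) between those groups.

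The genes of the midzone and of cytokinesis held the 2 largest differences of the set, in Prc1 and Ect2. PRC1, from Prc1, bundles the microtubules of the midzone. It read 5.70, 5.23 and 5.47 in PGC-1a4, below all 12 other arrays. It read 6.51, 6.14 and 6.63 in GFP, 6.35, 6.13 and 5.86 in PGC-1a1, 6.35, 6.72 and 6.71 in PGC-1a2 and 6.44, 6.48 and 6.14 in PGC-1a3. These groups overlapped, apart from PGC-1a1 and PGC-1a2, which met at 6.35. PGC-1a4 differed from GFP by -0.96 ± 0.18 (adjusted p = 0.0028) and PGC-1a2 from PGC-1a4 by 1.13 ± 0.18 (adjusted p = 0.00038). The difference of PGC-1a1 from PGC-1a4, 0.65 ± 0.18 (adjusted p = 0.038), did not hold when leaving out PGC-1a1 replicate 1 or 2 or PGC-1a4 replicate 2 or 3 (adjusted p 0.11 to 0.15, and up to 0.095 with median centring, the replicate block or only the 2 groups in the fit). Anillin, from Anln, the scaffold of the contractile ring, read 5.58, 5.30 and 5.58 in PGC-1a4 and 6.42, 5.93 and 6.43 in GFP without overlap, a difference of -0.77 ± 0.17 (adjusted p = 0.0077).

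Ect2 was the 1 member that was higher in PGC-1a3 than in GFP. It encodes the exchange factor that switches on RhoA at the cleavage site. It read 6.82, 6.89 and 6.60 in PGC-1a3, 6.25, 6.45 and 6.64 in PGC-1a2, 6.23, 5.63 and 6.14 in GFP, 6.16, 5.99 and 5.94 in PGC-1a1 and 5.66, 5.55 and 5.66 in PGC-1a4. The PGC-1a3 arrays lay above all GFP, PGC-1a1 and PGC-1a4 arrays and overlapped PGC-1a2. The difference of PGC-1a3 was 0.77 ± 0.15 (adjusted p = 0.0088) from GFP and 1.15 ± 0.15 (adjusted p = 0.00012) from PGC-1a4, and PGC-1a1 minus PGC-1a3 was -0.74 ± 0.15 (adjusted p = 0.0054). With only the 2 groups in the fit the adjusted p against GFP was 0.15. PGC-1a2 minus PGC-1a3 was -0.32 ± 0.15 (adjusted p = 0.23). The motor genes Kif20a and Kif23, which carry cargo to and build the midzone, were higher in PGC-1a2 than in PGC-1a4 by 0.64 ± 0.11 (adjusted p = 0.00091) and 0.50 ± 0.13 (adjusted p = 0.014). The Kif23 call did not hold when leaving out PGC-1a2 replicate 2 or 3 or PGC-1a4 replicate 2 (adjusted p 0.057 to 0.06, and 0.052 with quantile normalization). All 5 genes of this role were called higher in PGC-1a2 than in PGC-1a4, against 12.6% of all rows, with a median of 0.82.

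**Figure D4:**
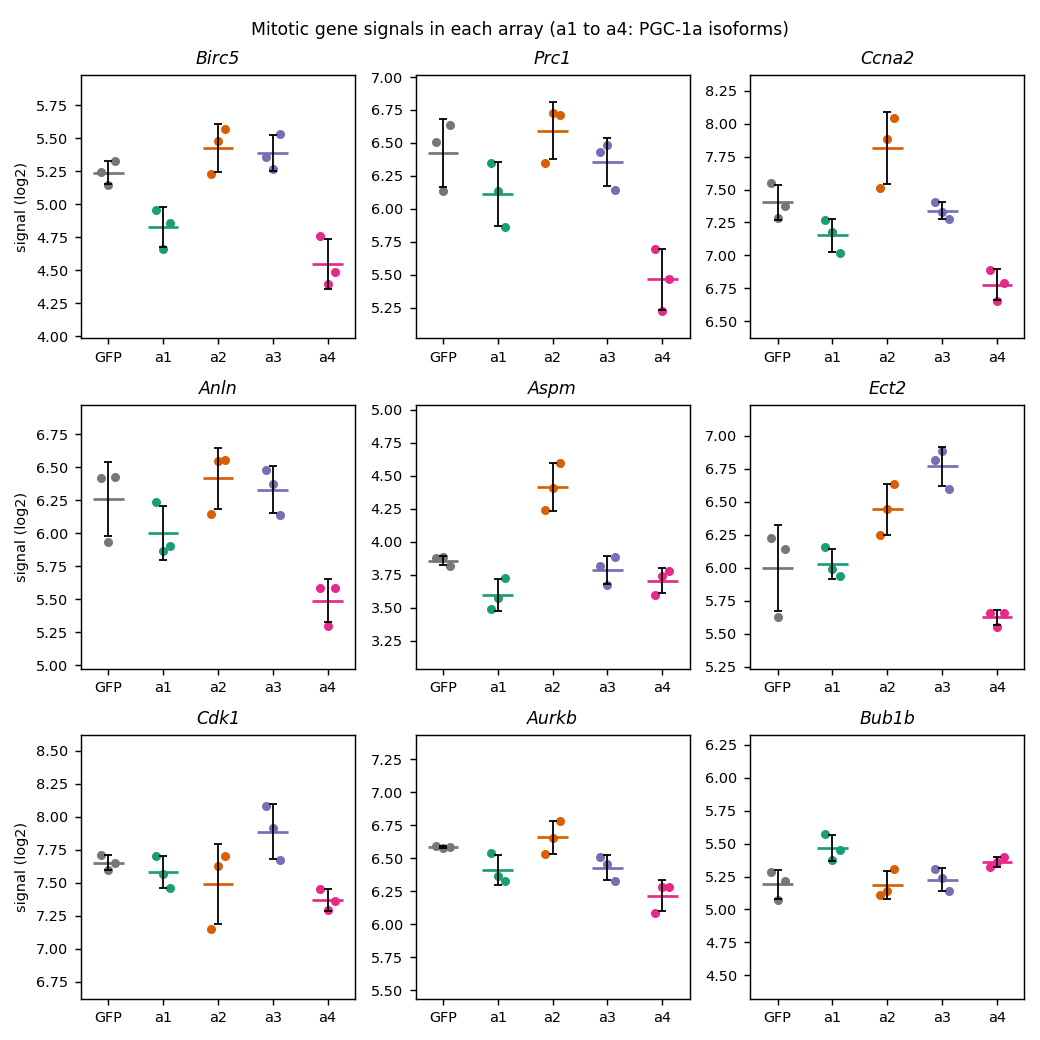
Log2 signal of 9 genes on each of the 15 arrays (points), with the mean (line) and SD (bar) of each group, n = 3; every panel spans 2 log2 units. The PGC-1a4 points of Prc1 lie below all others, the PGC-1a2 points of Aspm above all others, and the PGC-1a3 points of Ect2 above those of GFP, PGC-1a1 and PGC-1a4.

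Chromosome structure was the last role. Ki-67, from Mki67, coats mitotic chromosomes and is widely used as a proliferation marker. It read 4.34, 3.39 and 4.54 in GFP, a spread wider than that of any other group of this gene, 3.91, 3.46 and 3.78 in PGC-1a1, 4.07, 3.99 and 4.11 in PGC-1a2, 4.11, 3.78 and 4.14 in PGC-1a3 and 3.56, 3.37 and 3.81 in PGC-1a4. With all arrays at equal weight it passed no test, and PGC-1a4 minus GFP was -0.51 ± 0.24 (adjusted p = 0.22). Without GFP replicate 2 Mki67 was lower than in GFP both in PGC-1a4, at -0.86 (adjusted p = 0.0045), and in PGC-1a1, at -0.72 (adjusted p = 0.023). Array weights gave -0.78 (adjusted p = 0.015) and -0.74 (adjusted p = 0.021). Top2a, for the topoisomerase that untangles chromosomes, read 5.59, 6.12 and 6.21 in PGC-1a2, 6.07, 5.38 and 5.82 in GFP and 5.26, 4.90 and 5.26 in PGC-1a4. It was higher in PGC-1a2 than in PGC-1a4 by 0.83 ± 0.21 (adjusted p = 0.0088), and PGC-1a4 minus GFP, -0.62 ± 0.21 (adjusted p = 0.066), missed the threshold but passed it without GFP replicate 2, at -0.81 (adjusted p = 0.021). Ncaph, a condensin subunit, read 6.25, 6.33 and 6.47 in PGC-1a2 and 5.61, 5.45 and 5.56 in PGC-1a4 without overlap, a difference of 0.81 ± 0.15 (adjusted p = 0.0013), and PGC-1a1 minus PGC-1a2 was -0.64 ± 0.15 (adjusted p = 0.0088).

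The remaining isoform pairs gave smaller counts. In PGC-1a1 against PGC-1a2, 13 of the 34 genes were lower in PGC-1a1, against 9% of all rows, and 1 was higher, Bub1b, against 10.2%. Of these 14 calls 6 held without any 1 array of the 2 groups, and dropping PGC-1a2 replicate 2 or 3 or PGC-1a1 replicate 3 gave counts of 6, 9 and 8. In PGC-1a3 against PGC-1a4, 10 were higher in PGC-1a3, and 0 lower, against 13.2% and 9.79% of all rows, and 9 of the 10 were called in every alternative. In PGC-1a1 against PGC-1a3, 2 were lower in PGC-1a1 and 0 higher, against 7.56% and 6.48%. In PGC-1a1 against PGC-1a4, 2 were higher in PGC-1a1 and 0 lower, against 5.29% and 3.79%, and the count was 0 or 1 without any 1 array of these 2 groups. Without GFP replicate 2 it was 4 (11.8%, against 6.3% of all rows in that fit), and without PGC-1a2 replicate 1 it was 3 (8.82%, against 5.06%). In the main fit the shares of these last 2 comparisons are near or under the background.

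In PGC-1a2 against PGC-1a3, 8 genes were higher in PGC-1a2, against 3.76% of all rows called higher, and 0 were lower, against 5.52%. They were Aspm, Ube2c, Cenpa, Ccnb2, Hmmr, Plk1, Cenpe and Ccna2. Hmmr read 3.96, 3.88 and 3.89 in PGC-1a3, below all PGC-1a2 arrays, a difference of 0.67 ± 0.16 (adjusted p = 0.025), and the difference of Plk1 was 0.59 ± 0.15 (adjusted p = 0.026). The call of Aspm alone held without any 1 array of these 2 groups. The count was 2 without PGC-1a2 replicate 2, PGC-1a2 replicate 3 or PGC-1a3 replicate 1, 3 without PGC-1a3 replicate 2, 4 without PGC-1a3 replicate 3, 10 without PGC-1a2 replicate 1, and 0 with only the 2 groups in the fit.

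The genes of DNA replication, which are switched on one step earlier in the cycle by E2F, were set beside these. Of 40 listed, 35 had a row. In PGC-1a4, 13 of the 35 (37.1%) were lower than in GFP, against 7.22% of all rows, and 0 higher, led by the replicative helicase genes Mcm3, at -0.92 ± 0.10 (adjusted p = 5e-05), and Mcm6, at -1.15 ± 0.12 (adjusted p = 5.3e-05). In PGC-1a2, 10 (28.6%, against 4.56% of all rows) were higher and 0 lower, and in PGC-1a3, 16 (45.7%, against 5.02%) were higher and 0 lower, with Mcm3 at 1.09 ± 0.10 (adjusted p = 8e-05) and 1.56 ± 0.10 (adjusted p = 3.1e-05). In PGC-1a2 against PGC-1a4, 29 of the 35 (82.9%, against 12.6% of all rows) were higher and 0 lower, beside 76.5% of the mitotic genes. In PGC-1a3 against PGC-1a4, 28 (80%, against 13.2%) were higher and 0 lower, beside 29.4% of the mitotic genes. Between PGC-1a2 and PGC-1a3 the replication genes and the mitotic genes had opposite signs. For replication, 5 (14.3%, against 5.52% of all rows) were lower and 0 higher in PGC-1a2, with a median of -0.12, among them Ccne1, for cyclin E1, at -0.53 ± 0.08 (adjusted p = 0.0025) and Mcm3 at -0.47 ± 0.10 (adjusted p = 0.0095). For the mitotic genes 8 were higher and 0 lower, with a median of 0.25. No test of the difference between the lists was made. Without PGC-1a2 replicate 1, 4 replication genes were lower and 1 was higher, against 3.5% and 2.52% of all rows in that fit.

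Other genes of the mitotic apparatus, from lists without the 34, were as follows. Of 33 further kinetochore and checkpoint genes 23 had a row, and 14 (60.9%, against 12.6% of all rows) were higher and 0 lower in PGC-1a2 than in PGC-1a4, among them Zwilch, of the checkpoint complex RZZ, at 1.17 ± 0.17 (adjusted p = 0.00018) and Cenpn, a centromere protein, at 0.74 ± 0.10 (adjusted p = 0.00015). Against GFP 2 (8.7%) were lower in PGC-1a4, Zwilch and Mis18a, against 7.22% of all rows. In PGC-1a2, 2 (8.7%) were higher, Cenpn and Cenpt, against 4.56%, 1 was higher in PGC-1a3, Cenpn, and in PGC-1a1 0 were called by limma, with 2 at an unadjusted p under 0.05. Without GFP replicate 2, 4 were lower in PGC-1a4, against 8.39% of all rows in that fit. In PGC-1a2, 0 were higher and 1 was lower in that fit, against 3.51% and 5.58%. Without PGC-1a2 replicate 1 the PGC-1a2 count was 1 higher, against 3.49%. Of 41 further spindle, centrosome and cytokinesis genes 31 had a row. In PGC-1a4 against GFP 7 (22.6%, against 7.22% of all rows) were lower, among them Gtse1, a microtubule-bound regulator of p53, at -0.53 ± 0.10 (adjusted p = 0.0024), Stil, for centriole duplication, at -0.52 ± 0.12 (adjusted p = 0.011) and the motor Kif18a at -0.42 ± 0.10 (adjusted p = 0.013). There 1 was higher, Haus8, of the augmin complex, at 0.54 ± 0.11 (adjusted p = 0.0062). Without GFP replicate 2 the 7 became 12, against 8.39% of all rows in that fit. In PGC-1a2 against PGC-1a4, 15 (48.4%, against 12.6%) were higher and 1 lower.

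The 18 condensin and cohesin genes all had a row. In PGC-1a3, 6 (33.3%, against 5.02% of all rows) were higher than in GFP and 0 lower, among them the cohesin subunits Smc1a, at 0.40 ± 0.09 (adjusted p = 0.016), and Smc3, at 0.28 ± 0.06 (adjusted p = 0.015), and the condensin subunit Ncapd3, at 0.50 ± 0.11 (adjusted p = 0.016). Without GFP replicate 2 the count was 3, against 3.27% of all rows in that fit. In PGC-1a4, 2 (11.1%, against 7.22%) were lower, Ncapg2 and Smc2, and 6 without GFP replicate 2, against 8.39% of all rows in that fit. In PGC-1a1 the condensin gene Ncapd2 was the 1 gene called, at 0.45 ± 0.07 (adjusted p = 0.0015), and in PGC-1a2 0 of 18 were called by limma, with 6 at an unadjusted p under 0.05.

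Of 29 genes of the anaphase-promoting complex and of mitotic entry 26 had a row. In PGC-1a4, 2 (7.69%) were higher and 2 (7.69%) lower than in GFP, against 7.05% and 7.22% of all rows. Without GFP replicate 2 the counts were 2 and 4, against 5.97% and 8.39% of all rows in that fit. In PGC-1a2 against PGC-1a4, 8 (30.8%) were higher and 4 (15.4%) lower, against 12.6% each way. Without PGC-1a2 replicate 1 the counts were 5 and 4, against 11.1% and 11.4% of all rows in that fit. In PGC-1a3 against PGC-1a4, 7 (26.9%, against 13.2%) were higher and 2 (7.69%, against 9.79%) lower. Cdc25b, for the phosphatase that switches on Cdk1, differed between all isoform groups and GFP. It was at -0.48 ± 0.09 (adjusted p = 0.0066) in PGC-1a1, 0.53 ± 0.09 (adjusted p = 0.0036) in PGC-1a2, 0.41 ± 0.09 (adjusted p = 0.016) in PGC-1a3 and -0.66 ± 0.09 (adjusted p = 4e-04) in PGC-1a4. Fbxo5, for the inhibitor EMI1 of the anaphase-promoting complex, was lower in PGC-1a4, at -0.66 ± 0.18 (adjusted p = 0.027). Fzr1, for CDH1, which activates that complex after mitosis, was higher there, at 0.48 ± 0.06 (adjusted p = 2e-04), as was the securin gene Pttg1, at 0.30 ± 0.07 (adjusted p = 0.011). Pttg1 was lower in PGC-1a2 than in PGC-1a4, at -0.56 ± 0.07 (adjusted p = 5.6e-05), the opposite sign to the 26 mitotic genes called there.

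Among 16 measured genes of E2F, RB and MuvB proteins, of 19 listed, 4 (25%, against 7.22% of all rows) were lower and 0 higher in PGC-1a4 than in GFP. They were E2f7, at -0.40 ± 0.07 (adjusted p = 0.0026), Lin54, for the MuvB subunit that contacts the cell cycle homology region, at -0.55 ± 0.10 (adjusted p = 0.003), E2f4 and E2f8. In PGC-1a3, 2 (12.5%, against 5.02%) were higher, Rbl1, for p107, at 0.77 ± 0.12 (adjusted p = 0.0026) and E2f1 at 0.39 ± 0.08 (adjusted p = 0.0094). There 1 (6.25%, against 2.97%) was lower, Tfdp2. In PGC-1a2, 0 of the 16 were called by limma, with 4 at an unadjusted p under 0.05. In PGC-1a1, 1 was higher and 1 lower (6.25% each, against 4.44% and 2.4%). Of 12 measured D-type cyclin, CDK and CDK inhibitor genes, of 13 listed, 3 were higher and 3 lower (25% each, against 4.56% and 4.77% of all rows) in PGC-1a2 than in GFP. The counts were 3 and 2 in PGC-1a3 (25% and 16.7%, against 5.02% and 2.97%). They were 1 and 2 in PGC-1a4 (8.33% and 16.7%, against 7.05% and 7.22%). In PGC-1a1 they were 1 and 1 (8.33% each, against 4.44% and 2.4%). Ccnd1, for cyclin D1, was higher in PGC-1a2 and PGC-1a3, at 0.41 ± 0.08 (adjusted p = 0.0082) and 0.65 ± 0.08 (adjusted p = 0.001), and lower in PGC-1a4, at -0.35 ± 0.08 (adjusted p = 0.013). Cdk4, its partner, was at 0.34 ± 0.05 (adjusted p = 0.0024) in PGC-1a3 and -0.29 ± 0.05 (adjusted p = 0.0018) in PGC-1a4, and Cdkn1b, for the inhibitor p27, was at -0.57 ± 0.08 (adjusted p = 0.00094) in PGC-1a2.

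Markers of other cell states moved beside these counts, and their part in them was not tested. The mean of 14 myotube markers was 11.06 to 11.13 on the GFP arrays, 10.87 to 10.90 in PGC-1a1, 10.90 to 11.05 in PGC-1a2, 10.87 to 10.88 in PGC-1a3 and 11.04 to 11.13 in PGC-1a4. Against GFP, 5 of the 14 (35.7%, against 2.4% of all rows) were lower in PGC-1a1 and 3 (21.4%, against 4.77%) in PGC-1a2. In PGC-1a3, 4 (28.6%, against 2.97%) were lower, and in PGC-1a4, 2 (14.3%, against 7.22%). In these 4 comparisons 0 were higher. In PGC-1a2 against PGC-1a4, 1 (7.14%, against 12.6% of all rows) was higher, Tnnc2, for a troponin, at 0.28 ± 0.06 (adjusted p = 0.0041). There 3 (21.4%, against 12.6%) were lower, Myom1, Ckm and Casq1, with Myom1, for a sarcomere protein, at -0.51 ± 0.08 (adjusted p = 0.00036). The mean of 10 myoblast and satellite cell markers was 7.71 to 7.79 in both PGC-1a2 and PGC-1a4. Within that list the genes were split. Myf5 and Myod1, for myogenic factors of cycling myoblasts, were higher in PGC-1a2 than in PGC-1a4, at 0.92 ± 0.07 (adjusted p = 1.7e-06) and 0.51 ± 0.09 (adjusted p = 0.0013). Of the 3 that were lower, Pax7, the satellite cell factor, was at -0.43 ± 0.06 (adjusted p = 0.00011) and Itga7, for an integrin chain, at -0.45 ± 0.07 (adjusted p = 0.00036). Against GFP the list was split as well. In PGC-1a2, Myf5 was higher, at 0.45 ± 0.07 (adjusted p = 0.0023), and Pax7 and Itga7 were lower, at -0.26 ± 0.06 (adjusted p = 0.012) and -0.35 ± 0.07 (adjusted p = 0.009). In PGC-1a4, Myf5 and Myod1 were lower, at -0.46 ± 0.07 (adjusted p = 0.00091) and -0.35 ± 0.09 (adjusted p = 0.027), and Sdc4, for a syndecan, and Vcam1, for an adhesion molecule, were higher, at 0.50 ± 0.11 (adjusted p = 0.0097) and 0.41 ± 0.11 (adjusted p = 0.025). In PGC-1a1 Vcam1 was the 1 marker called, higher at 0.88 ± 0.11 (adjusted p = 4e-04), and in PGC-1a3 0 of the 10 were called by limma, with 4 at an unadjusted p under 0.05.

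Markers of fibroblasts, endothelial cells, adipocytes and macrophages had group means of 4.12 to 4.64, near the lower quartile of the arrays at 3.86 to 4.05. Of 9 fibroblast markers 0 were called by limma against GFP in any isoform group, also with 0 at an unadjusted p under 0.05, and in PGC-1a2 against PGC-1a4 Fap was lower, at -0.25 ± 0.07 (adjusted p = 0.015). Pdgfra, Dcn, Lum, Fap and Dpt lay below the lower quartile on 12 to 15 arrays. Col3a1, Col1a2, Col1a1 and Thy1 did so on 0 arrays, at percentiles 70.5, 57.7, 55.1 and 40.6 of rows. The adipocyte marker Plin1 and the macrophage marker Cd68 were at percentiles 57.1 and 53.8, so the means do not describe every marker.

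Of 6 endothelial markers Tek was lower in PGC-1a4 than in GFP, at -0.39 ± 0.10 (adjusted p = 0.025), and no other was called in an isoform group against GFP or in PGC-1a2 against PGC-1a4. Of 5 macrophage markers Itgam was lower than GFP in PGC-1a1 and PGC-1a4, at -0.33 ± 0.08 (adjusted p = 0.032) and -0.37 ± 0.08 (adjusted p = 0.0098), and higher in PGC-1a2 than in PGC-1a4, at 0.40 ± 0.08 (adjusted p = 0.0034). Cd68 was higher in PGC-1a3 than in GFP, at 0.59 ± 0.13 (adjusted p = 0.017). Of 5 adipocyte markers Adipoq was higher in PGC-1a2 than in PGC-1a4, at 0.37 ± 0.11 (adjusted p = 0.031), and lay below the lower quartile on 11 of the 15 arrays. The mean of the macrophage markers was 4.07 to 4.22 on the PGC-1a4 arrays, 4.21 to 4.40 in GFP and 4.29 to 4.38 in PGC-1a2, so that PGC-1a4 lay below PGC-1a2 and overlapped GFP. The part of these cells in the counts of mitotic genes was not tested.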

How the data were processed

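The members and gene lists were chosen with earlier results of these data known. The deposited table gives log2 signals for 23332 rows and 15 arrays, used unchanged. The submitters' processing notes name Partek. Version, background correction, normalization and genome build are not stated in those sources. Array medians ran from 5.476 to 5.659. Exactly 1 platform symbol stood on 14996 rows.

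One limma model (limma 3.58.1, R 4.3.3, 10 residual and 2.09 prior degrees of freedom), checked on simulated data, covered all arrays, 10 contrasts and an F-test. Two-sided p-values received a Benjamini-Hochberg adjustment across all rows of a contrast, and rows under 0.05 were called. Counts at an unadjusted p under 0.05 have no share of all rows beside them and are not read as a result about a list. Differences are in log2 and carry limma's moderated SE (3 arrays per group), the group named second being subtracted. Exact tests of 3 against 3 arrays reach 0.1 at best, and the number of arrays limits the precision. Named genes are any member and, per other list and contrast, up to 4 genes of smallest p. Alternatives were quantile normalization, median centring, array weights, a filter on rows under the 25th percentile, a variance trend, a replicate block, only 2 groups in the fit, and each array left out in turn. The last are given for the arrays of the 2 groups compared unless another array is named. Counts of the other lists without GFP replicate 2 or PGC-1a2 replicate 1 were added after the data were seen.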

Additional observations from a re-analysis of the deposited data

How the results depend on the processing

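The 78 calls of members had 1014 alternative values, of which 854 kept the direction and the call, 160 kept the direction and missed the threshold, and 0 reversed, and 41 of the 78 calls were kept in every alternative. The smaller fits hold fewer samples, and the causes of the changed counts were not tested. Array weights also called more of all rows. They gave 4 lower in PGC-1a1 (11.8%, against 6.75% of all rows), 4 higher in PGC-1a2 (11.8%, against 6.33%) and 20 lower in PGC-1a4 (58.8%, against 10.3%) than in GFP. In PGC-1a1 against PGC-1a2 they gave 25, with 24 lower (70.6%, against 13.1%) and 1 higher (2.94%, against 13.1%). They gave 6 lower in PGC-1a1 against PGC-1a3 (17.6%, against 13.4%) and 6 higher against PGC-1a4 (17.6%, against 7.83%). In PGC-1a2 against PGC-1a3 they gave 14, with 12 higher (35.3%, against 6.2%) and 2 lower (5.88%, against 11%). The 2 were Cdk1 and Ect2, at -0.39 (adjusted p = 0.039) and -0.37 (adjusted p = 0.03), by limma. Of the genes without a call, they called Ttk in PGC-1a4 against GFP, at -0.35 (adjusted p = 0.035), and Nusap1 in PGC-1a2 against PGC-1a3, at 0.57 (adjusted p = 0.037), and the filter called Ndc80 in PGC-1a1 against PGC-1a3, at 0.47 (adjusted p = 0.04). Median centring gave 7 in PGC-1a4 against GFP, 9 in PGC-1a1 against PGC-1a2, 0 in PGC-1a1 against PGC-1a4 and 5 in PGC-1a2 against PGC-1a3. It called fewer of all rows as well. Rows called lower went from 1685 to 975 in PGC-1a4 against GFP and from 2100 to 1306 in PGC-1a1 against PGC-1a2. Rows called higher went from 1235 to 911 in PGC-1a1 against PGC-1a4 and from 877 to 565 in PGC-1a2 against PGC-1a3. Only 2 groups in the fit gave 0, 0 and 3 in PGC-1a2, PGC-1a3 and PGC-1a4 against GFP, 9 in PGC-1a1 against PGC-1a2 and 0 in PGC-1a2 against PGC-1a3. The filter gave 2 in PGC-1a1 and 4 in PGC-1a2 against GFP, and 4 in PGC-1a1 against PGC-1a3. PGC-1a2 against GFP gave 3 with quantile normalization and 2 with a variance trend.

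Leaving out 1 array of the 2 groups compared gave 0 to 1 in PGC-1a1, 1 to 4 in PGC-1a2, 1 to 3 in PGC-1a3 and 9 to 16 in PGC-1a4 against GFP. It gave 6 to 15 in PGC-1a1 against PGC-1a2, 0 to 1 in PGC-1a1 against PGC-1a4, 2 to 10 in PGC-1a2 against PGC-1a3 and 23 to 26 in PGC-1a2 against PGC-1a4. Without GFP replicate 2, an array of neither group, the last 1 of these gave 27 (79.4%, against 13.6% of all rows in that fit). PGC-1a1 against PGC-1a4 then gave 4 (11.8%, against 6.3%).

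The replicate numbers were not taken as pairs. Deviations of 11 of 30 same-numbered pairs had r above 0.1 (-0.22 to 0.36), and 6 of 15 arrays were closest to an array of their number. Pairs of different numbers were not set beside these, so the values do not decide whether the arrays were paired. The replicate block gave 12 in PGC-1a4 against GFP, 26 in PGC-1a2 against PGC-1a4 and 0 in PGC-1a1 against PGC-1a4. Over all rows, median centring moved the higher share of calls from 64.9% to 83.8% in PGC-1a1 and from 49.4% to 60.7% in PGC-1a4 against GFP, from 53.2% to 64.5% in PGC-1a1 against PGC-1a2 and from 46.2% to 62.5% in PGC-1a1 against PGC-1a3.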

Other observations

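Within groups, most of the 34 genes varied together. Taking each array's deviation from its group mean over the 15 arrays, the median correlation of a gene with the mean of the other members was 0.81, against 0.06 for all other rows. The value was above 0.5 for 28 of the 34, against 19.4% of the other rows. It was highest for Anln, at 0.98, and lowest for Cenpa, at -0.16. The points share their arrays, and the values are a description.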
